A study of Mus musculus with 24 samples.

Results

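The mammary glands of mice on day 3 of involution (Inv3) were compared with those of mice on day 18 of gestation (P18), with 6 mice at each stage. P18 is the last stage sampled before milk secretion and Inv3 the stage sampled after it. Levels are given as RPM, the reads of a miRNA scaled to a common library total. Of the 1009 miRNAs listed, 499 averaged 1 RPM or more at either stage and were compared. Per the study's methods, all mice were females of the inbred C57BL/6 strain, and the abdominal and inguinal glands were taken. Every library was made from a homogenate of whole glands, so that epithelium, fat, connective tissue, vessels and blood were measured together. In such samples, fewer cells of a type and less RNA per cell cannot be told apart. The study also sampled 6 mice at 10 weeks of age (W10) and 6 on day 7 of lactation (Lac7), which serve here only as reference levels.

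A miRNA is a short RNA cut from one arm, 5p or 3p, of a hairpin transcript. It guides repression of mRNAs that carry a match to its seed, the bases near its 5′ end, so miRNAs with the same seed share most predicted targets. Late in pregnancy the alveolar epithelium expands and prepares to secrete, whereas after weaning secretion stops, alveolar cells die and are cleared, and fat and connective tissue are remodelled.

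The mature sequences of the miRNAs on which the comparison turns are given first, with the seed (bases 2 to 8) in capitals, so that family members with opposite or unequal changes can be compared. They were taken from RefSeq (GRCm38.p6), which matched 428 of the 499 miRNAs. The first lines are the most abundant miRNAs that were called higher at Inv3, and miR-29c-3p as the third member of the miR-29 seed group.
miR-29a-3p: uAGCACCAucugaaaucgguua
miR-29b-3p: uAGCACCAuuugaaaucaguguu
miR-29c-3p: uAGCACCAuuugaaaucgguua
miR-21a-5p: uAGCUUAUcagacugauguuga
miR-140-3p: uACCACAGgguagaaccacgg
miR-339-5p: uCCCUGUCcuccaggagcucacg

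The next lines are miRNAs that were called lower at Inv3, and miR-93-5p, which has the miR-17 seed and was lower without being called. Of the miR-17 seed group, miR-106a-5p and miR-20b-5p are not printed.
miR-204-5p: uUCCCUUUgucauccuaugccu
miR-210-3p: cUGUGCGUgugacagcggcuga
miR-138-5p: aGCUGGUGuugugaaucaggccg
miR-148a-3p: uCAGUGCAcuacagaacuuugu
miR-203-3p: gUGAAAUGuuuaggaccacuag
miR-431-5p: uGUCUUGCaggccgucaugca
miR-17-5p: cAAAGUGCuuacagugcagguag
miR-20a-5p: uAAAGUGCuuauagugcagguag
miR-106b-5p: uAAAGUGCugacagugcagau
miR-93-5p: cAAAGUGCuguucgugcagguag

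The last lines are pairs of miRNAs with the same seed whose levels changed by different amounts between the stages.
miR-146a-5p: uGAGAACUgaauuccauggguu
miR-146b-5p: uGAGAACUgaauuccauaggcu
miR-181a-5p: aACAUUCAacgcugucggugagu
miR-181b-5p: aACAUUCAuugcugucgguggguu
miR-181d-5p: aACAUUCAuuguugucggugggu
miR-16-5p: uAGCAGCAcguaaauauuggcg
miR-15b-5p: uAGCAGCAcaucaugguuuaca

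The 12 libraries held 722068 to 1165321 reads on miRNAs, so that 1 read was worth 0.858 to 1.38 RPM and a miRNA without a read could still be at 2.57 to 4.15 RPM (3 reads, counting error only). No pair of libraries of a stage agreed within sampling noise. The 10 most abundant miRNAs took 65.6 to 67.9% of the reads at P18 and 67.7 to 71.6% at Inv3. miR-143-3p alone, a miRNA of smooth muscle and fibroblasts, took 13.8 to 15.5% at P18 and 21.3 to 29.5% at Inv3. Because RPM are shares, a larger share of this miRNA lowers the values of the others. The median log2 fold change of all miRNAs tested (Inv3 over P18 on the log2(RPM + 1) scale, as for every log2 fold change below) was -0.15, and it was -0.04 when libraries were scaled by size factors (DESeq2's median of ratios) and 0.01 when miR-143-3p was left out of the scaling.

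In all, 73 of 499 miRNAs (14.6%) were called, that is, had an adjusted p under 0.05 in limma's moderated test with Benjamini-Hochberg adjustment and a log2 fold change of at least 1 in size. Of these, 22 (4.41% of those tested) were higher at Inv3 and 51 (10.2%) were lower. The part that was higher, 30.1% of the called miRNAs, was 39.1% with size factors and 47.1% without miR-143-3p in the scaling. Without the limit on size, 138 miRNAs (27.7%) had an adjusted p under 0.05, of which 52 were higher and 86 lower. The 6 Inv3 mice all lay above the 6 P18 mice for 23 miRNAs (4.61%) and all below them for 45 (9.02%). The verbs rose and fell are used below for an adjusted p under 0.05, and called is kept for the stricter rule.

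Calls were made at all levels. Of the 161 miRNAs that averaged 100 RPM or more at either stage, 27 were called, 7 higher and 20 lower, against 46 of the 338 miRNAs below that level. The 95% interval of the log2 fold change lay within 1 log2 unit of 0 on both sides for 176 miRNAs (35.3%). That share was 60.2% at 100 RPM or above and 23.4% below it, so a change was bounded less often where the level was low. An average of 1 RPM or more was reached at both stages by 434 miRNAs, at P18 alone by 39 and at Inv3 alone by 26. The 65 that reached it at 1 stage alone were all near the detection limit, with a highest stage mean of 6.66 RPM, and 3 of them were called.

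When the same test was applied to each pair of the 4 stages, Inv3 against P18 gave the fewest calls, 73 of 499. The calls were 151 of 531 (28.4%) for P18 against W10, 270 of 523 (51.6%) for Lac7 against W10, 139 of 519 (26.8%) for Inv3 against W10, 164 of 490 (33.5%) for Lac7 against P18 and 143 of 480 (29.8%) for Inv3 against Lac7. These comparisons share libraries. Inv3 against P18 was chosen as the smallest contrast among the stages, with earlier results of these data known, so its rank is not an independent result. Inv3 against P18 also had the fewest calls in the fit of all 24 libraries (79) and with size factors (69, against 97 for Inv3 against W10, the next fewest).

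Of the called miRNAs of at least 100 RPM at either stage whose mice did not overlap, miR-29a-3p had the largest increase. The miR-29 family is known to repress collagens and other matrix proteins. miR-29a-3p was at 8079, 11498 and 16201 RPM at P18 (lowest, median and highest mouse) and at 34513, 36255 and 41882 RPM at Inv3. The 2 stages were well apart, and the Inv3 mice were close to each other, with a highest value 1.21 times the lowest, against 2.01 times at P18. The log2 fold change was 1.69 ± 0.16 (SE, n = 6 mice per stage), with an adjusted p of 1.19e-06 by limma. Its mean was 48025 RPM at W10 and 21014 RPM at Lac7.

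miR-29b-3p was at 181, 260 and 343 RPM at P18 and at 418, 534 and 616 RPM at Inv3, again with no overlap. Its log2 fold change of 1.04 ± 0.18 (limma adjusted p = 3.46e-04) was at the limit of the rule and came to 0.94 to 0.99 without Inv3 mouse 6, P18 mouse 1 or P18 mouse 4. miR-29c-3p rose by 0.96 ± 0.19 without being called. All 7 tested members of the family had a log2 fold change above 0, with a median of 0.96. Of these, 3 were called higher (42.9%, beside 4.41% of all miRNAs tested), the third being miR-29b-2-5p. This strand was at 0 to 4.14 RPM at P18, near the level of 3 reads, and at a median of 6.49 RPM at Inv3. Its call was lost in 4 settings, the pseudocounts of 0.1 and 10 RPM among them. The hairpins of miR-29a (chr6:31062660-31062747, minus strand, GRCm38.p6) and miR-29b-1 (chr6:31063023-31063093) lie in no annotated host gene, whereas miR-29b-2 (chr1:195037040-195037120, plus strand) and miR-29c (chr1:195037547-195037634) lie in exons of the non-coding gene A330023F24Rik. Mature miR-29b-3p is the same from either hairpin.

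miR-21a-5p, which is widely induced in inflamed and remodelling tissue, rose from 11166, 13059 and 15980 RPM at P18 to 23915, 28371 and 49305 RPM at Inv3. Every Inv3 mouse was above every P18 mouse, and Inv3 mouse 1 stood above the other Inv3 mice, which reached 30619 RPM. The log2 fold change was 1.21 ± 0.16 (limma adjusted p = 3.17e-05). The other arm of the hairpin, miR-21a-3p, rose from a median of 3.59 RPM to 14.8 RPM, by 1.84 ± 0.34. The hairpin lies in an exon of Vmp1 (chr11:86584067-86584158, minus strand).

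miR-140-3p, known for its role in cartilage and encoded within Wwp2 (chr8:107551244-107551313, plus strand), was at 1190 to 1628 RPM at P18 and at 2980 to 3666 RPM at Inv3. The log2 fold change was 1.19 ± 0.12 (limma adjusted p = 1.70e-06). miR-339-5p was at 156 to 238 RPM at P18 and at 382 to 534 RPM at Inv3, and rose by 1.27 ± 0.15. miR-350-3p was at 35.7 to 89.1 RPM at P18 and at 107 to 190 RPM at Inv3, and rose by 1.17 ± 0.23. No mice of the 2 stages overlapped for these miRNAs.

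Apart from miR-375-3p, described below with the epithelial miRNAs, the other called increases were of miRNAs under 100 RPM at both stages. miR-222-3p, which with miR-221 is known to repress the cell cycle inhibitor Cdkn1b, was at 7.59 to 15.5 RPM at P18 and at 28.8 to 41.2 RPM at Inv3 (log2 fold change 1.50 ± 0.23). Its seed partner miR-221-3p rose by 0.57 ± 0.11, and miR-221-5p by 1.31 ± 0.36 from 4.30 to 10.9 RPM (medians). miR-132-3p, which responds to the transcription factor Creb, rose by 1.25 ± 0.29 from a median of 8.40 to 19.9 RPM. miR-34a-3p, from a hairpin induced by p53, rose by 1.32 ± 0.38 from 3.25 to 10.1 RPM, with mice that overlapped, and the more abundant arm miR-34a-5p rose by 0.74 ± 0.23. let-7d-3p rose by 1.48 ± 0.35 and was at 28.6 to 58.4 RPM in 5 Inv3 mice and at 174 RPM in mouse 2. miR-676-5p and miR-676-3p rose by 1.27 ± 0.28 and 1.16 ± 0.26.

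**Figure D1:**
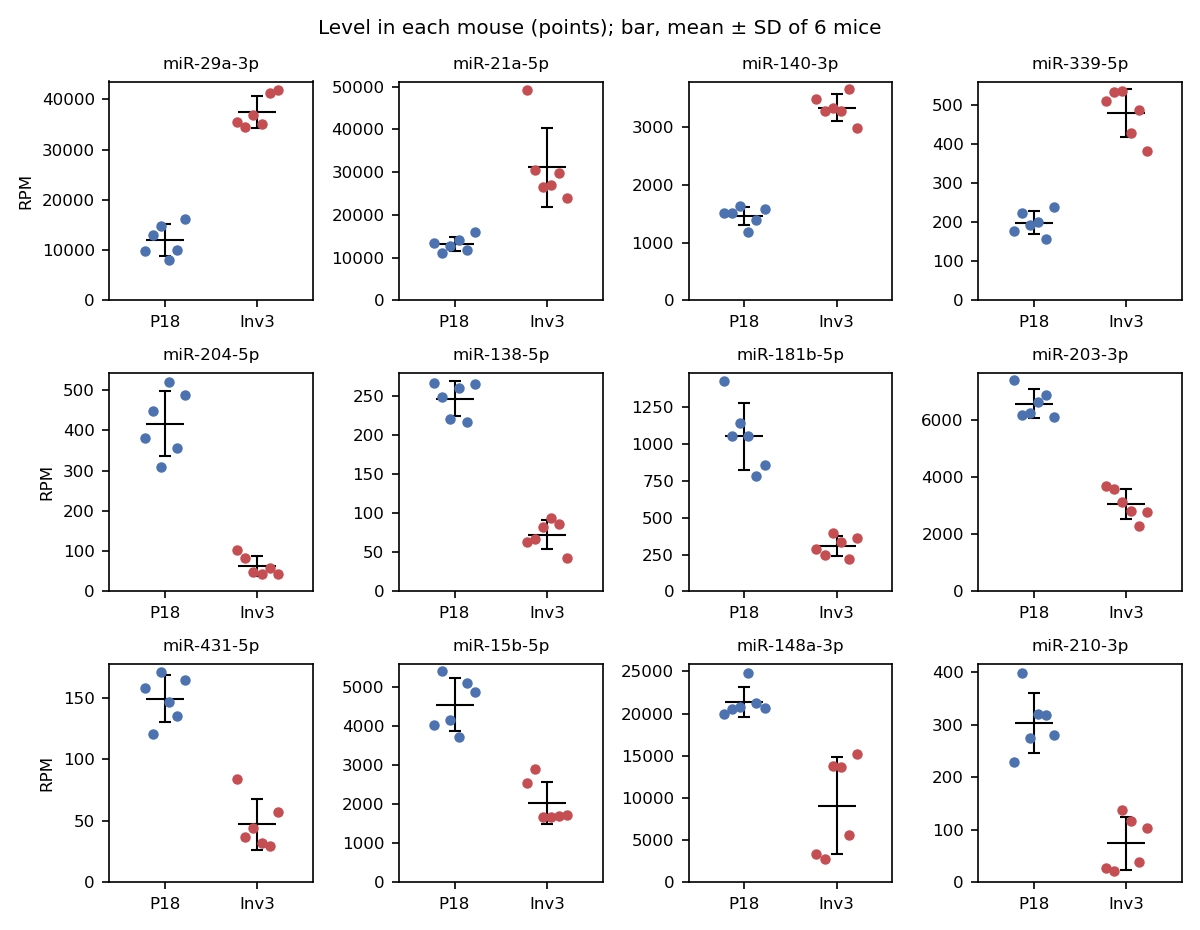
Level in RPM (vertical axis, from 0) of 12 miRNAs in each of the 6 P18 mice (blue) and 6 Inv3 mice (red), with the mean and SD of the 6 mice as a bar. The mice of the 2 stages do not overlap for any of the 12, and the Inv3 mice are widely spread for miR-148a-3p (2810 to 15195 RPM) and miR-210-3p (22.5 to 137 RPM).

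Of the miRNAs of at least 100 RPM that fell, miR-204-5p had the largest decrease. It is abundant in retinal pigment epithelium and choroid plexus, and its hairpin lies in an intron of Trpm3 (chr19:22750605-22750672, plus strand). It was at 309, 414 and 520 RPM at P18 and at 44.0, 53.3 and 103 RPM at Inv3, a ratio of means of 6.57. The log2 fold change was -2.75 ± 0.22 (limma adjusted p = 3.14e-07). The mean was 161 RPM at W10 and 35.6 RPM at Lac7, so the P18 level was the highest of the 4 stages. The other member of its family tested, miR-211-5p, was not called.

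miR-138-5p was at 217 to 267 RPM at P18 and at 42.9 to 94.2 RPM at Inv3 (log2 fold change -1.79 ± 0.19, limma adjusted p = 3.12e-06). Means at W10 and Lac7 were 118 and 91.6 RPM. It can come from hairpins at chr9:122682876-122682974 and chr8:94324311-94324381 (both on the plus strand), which cannot be told apart from the mature sequence. miR-335-5p, encoded in an intron of the imprinted gene Mest (chr6:30741299-30741396, plus strand), was at 105 to 156 RPM at P18 and at 17.8 to 66.5 RPM at Inv3 (log2 fold change -1.79 ± 0.26). The other arm, miR-335-3p, fell by 2.18 on the log2 scale, from a median of 17.3 to 3.09 RPM. Neither arm had mice that overlapped.

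miR-203-3p, known in the epidermis for repressing the basal cell factor p63, was at 6114, 6428 and 7399 RPM at P18 and at 2302, 2967 and 3678 RPM at Inv3. Its log2 fold change of -1.12 ± 0.13 (limma adjusted p = 7.35e-06) was -0.94 when miR-143-3p was left out of the scaling. miR-203-5p fell as well, by 1.62 on the log2 scale, from 70.3 to 114 RPM at P18 to 13.3 to 55.8 RPM at Inv3. The hairpin lies between genes at chr12:112130880-112130955.

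miR-298-5p and miR-181d-5p had the largest decreases among called miRNAs of under 100 RPM whose mice did not overlap, together with miR-335-3p. miR-298-5p was at 11.2 to 27.7 RPM at P18 and at 0 to 3.07 RPM at Inv3, which is about the level of 3 reads, so the size of its change is poorly fixed. The largest decrease of all, that of miR-206-3p, a miRNA of skeletal muscle, had mice that overlapped. It was at 2.07 to 66.7 RPM at P18 and at 0 to 4.76 RPM at Inv3 (log2 fold change -2.94 ± 0.68).

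The miR-17-92 cluster and its paralogues, which are known to promote cell proliferation, were mostly lower at Inv3. Of 23 members tested, 5 were called lower (miR-17-5p, miR-18a-5p, miR-20a-5p, miR-92a-3p and miR-106b-5p) and none higher, a share of 21.7% beside 10.2% called lower of all miRNAs tested, and 20 had a log2 fold change below 0. The median was -0.70 (-0.63 with size factors), beside -0.15 for all miRNAs tested. The 3 members above 0 were miR-363-3p (0.43), miR-20b-5p (0.21) and miR-106a-5p (0.02), none of them called. miR-17-5p was at 93.8, 126 and 141 RPM at P18 and at 36.2, 50.8 and 70.6 RPM at Inv3 (log2 fold change -1.25 ± 0.19, limma adjusted p = 1.25e-04). miR-20a-5p was at 501 to 883 RPM and at 223 to 402 RPM (log2 fold change -1.16 ± 0.18, and -0.98 without miR-143-3p in the scaling). miR-18a-5p was at 81.0 to 159 RPM at P18 and at 31.4 to 54.0 RPM at Inv3. The stages did not overlap for these miRNAs.

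The Mcm7-hosted cluster on chromosome 5 changed in the same direction. miR-106b-5p (chr5:138165737-138165818, minus strand, in an intron) was at 141 to 264 RPM at P18 and at 51.4 to 103 RPM at Inv3 (log2 fold change -1.28 ± 0.21). Its neighbours miR-93-5p and miR-25-3p, at far higher levels, also fell with no overlap, miR-93-5p from 4965 to 6314 RPM at P18 to 2778 to 3186 RPM at Inv3 (log2 fold change -0.96 ± 0.11, limma adjusted p = 5.65e-06) and miR-25-3p by 0.89 on the log2 scale. Both were just short of the limit on size. miR-92a-3p, with a log2 fold change of -1.01 ± 0.26, had mice that overlapped and came to -0.86 to -0.97 when Inv3 mouse 3, 4, 5 or 6, or P18 mouse 1 or 4, was left out.

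miR-15b-5p, encoded with miR-16-2 in an intron of the chromosome condensation gene Smc4 (chr3:69009772-69009835, plus strand), was at 3717, 4516 and 5416 RPM at P18 and at 1668, 1712 and 2896 RPM at Inv3. Its log2 fold change was -1.18 ± 0.16 (limma adjusted p = 4.89e-05). miR-16-5p, from that intron and a second locus in Dleu2, was at 94342 to 115301 RPM at P18 and at 79632 to 107348 RPM at Inv3, a change of -0.20 ± 0.11. Of the 13 members of the miR-15, miR-16, miR-195 and miR-497 list that were tested, 2 were called lower (miR-15b-5p and miR-16-2-3p) and 1 higher (miR-16-1-3p), together 23.1%, beside 14.6% of all miRNAs tested. The last 2 named are strands of low level, under 30 RPM in every mouse. miR-16-2-3p was at 3.11 to 5.09 RPM at P18 and at 0 to 2.05 RPM at Inv3, near the level of 3 reads. Its call was lost in 6 settings, edgeR and DESeq2 among them.

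The miRNAs of the imprinted Dlk1-Dio3 region, which are expressed from the maternal chromosome and are known from embryonic tissue, placenta and brain, formed the largest group of decreases. Of 81 listed, 47 were tested, and 20 were called lower and none higher (42.6%), beside 31 of the 452 other miRNAs tested (6.86%) called lower. Only 3 of the 47 had a log2 fold change above 0, and the median was -0.92 (-0.86 with size factors). The range was -1.88 to 0.97. The 45 with a position lie on chr12:109572004-109743486. All Inv3 mice were below all P18 mice for 10 of the 47, beside 9.02% of all miRNAs tested. Of the 20 calls, 14 were kept by edgeR, 10 by DESeq2 (which gave an adjusted p for 18), 16 with size factors, 13 without miR-143-3p in the scaling, 6 with a pseudocount of 10 RPM and 15 to 20 with a mouse left out. The call of miR-136-5p was lost in 18 settings and that of miR-668-3p in 12. The sum over the listed members was at 2034, 2207 and 2370 RPM at P18 and at 636, 944 and 1883 RPM at Inv3, beside 1953 to 2832 RPM at W10 and 344 to 781 RPM at Lac7.

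Among single members, miR-431-5p, whose hairpin is antisense to an exon of Rtl1 (chr12:109590447-109590537, plus strand), was at 120, 152 and 170 RPM at P18 and at 29.5, 40.7 and 84.1 RPM at Inv3. The log2 fold change was -1.72 ± 0.23 (limma adjusted p = 4.89e-05). miR-379-5p was at 135 to 195 RPM and at 30.6 to 110 RPM (log2 fold change -1.28 ± 0.26). miR-434-5p was at 258 to 297 RPM and at 72.01 to 221 RPM (log2 fold change -1.18 ± 0.22), and the other arm, miR-434-3p, fell from a median of 24.4 to 5.24 RPM. miR-3071-3p was at 144 to 246 RPM and at 35.1 to 140 RPM (log2 fold change -1.37 ± 0.28). It lies on the strand opposite miR-136-5p (chr12:109595329-109595350, minus strand, against chr12:109595331-109595352, plus strand), so that the reads of the pair depend on strand being kept. miR-541-5p was the most abundant, at 526 to 777 RPM and at 204 to 600 RPM, and its log2 fold change of -1.09 ± 0.21 came to -0.97 without Inv3 mouse 2 or with size factors.

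Inv3 mouse 1 held the highest Inv3 level for 29 of the 47 members and for 13 of the 20 that were called. The same count was not made over all miRNAs tested. This mouse was also the highest at Inv3 for miRNAs outside the region, such as miR-21a-5p and miR-204-5p. The tested Dlk1-Dio3 members summed to 1874 RPM in mouse 1, to 635 to 1291 RPM in the other 5 Inv3 mice and to 2029 to 2361 RPM at P18. Mouse 1 thus lay nearest to the P18 mice, although below all of them. Of the 20 called members, 6 were under 10 RPM at both stages.

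**Figure D2:**
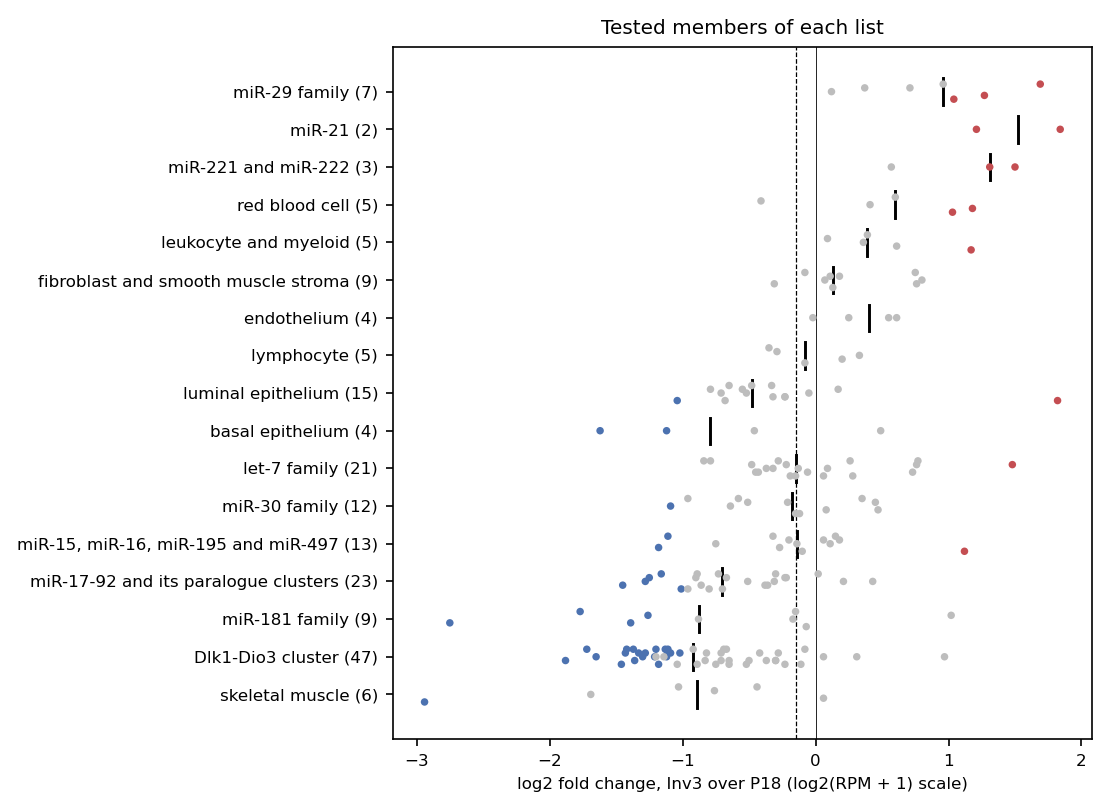
Log2 fold change from P18 to Inv3 (horizontal axis) of each tested member (points) of 17 lists of families, clusters and cell type markers (number tested in brackets), with called higher in red, called lower in blue and not called in grey. Black bars are list medians and the dashed line is the median of all 499 miRNAs, -0.15. The Dlk1-Dio3 and miR-17-92 members lie mostly to the left of 0 and the 7 miR-29 members to the right.

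The members of the miR-181 family changed unevenly. Of 9 members tested, 4 were called lower (miR-181b-5p, miR-181b-1-3p, miR-181c-3p and miR-181d-5p), a share of 44.4% beside 10.2% of all miRNAs tested, and the median was -0.88. The family is best known from lymphocyte development. miR-181b-5p was at 782, 1056 and 1426 RPM at P18 and at 223, 313 and 397 RPM at Inv3 (log2 fold change -1.77 ± 0.18, limma adjusted p = 2.30e-06). miR-181a-5p, at 471 to 787 RPM and at 388 to 813 RPM, differed by -0.17 ± 0.19. The hairpins of the pair lie next to each other at both of their loci, miR-181a-1 at chr1:137966455-137966541 and miR-181b-1 at chr1:137966639-137966718, and miR-181a-2 at chr2:38852735-38852810 and miR-181b-2 at chr2:38853830-38853918, all on the plus strand. miR-181d-5p, at 19.7 to 43.8 RPM at P18 and at 0.950 to 12.01 RPM at Inv3, is close in sequence to miR-181b-5p and may share reads with it.

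Ratios between miRNAs with the same seed were then compared within each library, where the scaling cancels. The reference of each seed group was its most abundant member, and 37 ratios in 20 groups were tested by a two-sided exact permutation test over the 924 ways of splitting the 12 mice, whose smallest p is 0.00216. Adjusted over the 37, 20 ratios had p under 0.05. These ratios were chosen after the values had been seen. miR-181a-5p was below miR-181b-5p in all 6 P18 mice and above it in all 6 Inv3 mice, and the log2 ratio rose by 1.60 ± 0.06 (SE; exact permutation, adjusted p = 0.0073). The sequences differ at U9A, U10C and G21A, written as the base of miR-181b-5p, the position from the 5′ end and the base of miR-181a-5p.

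The miR-146 pair, which is induced by NF-kB and known to dampen inflammatory signalling, moved in opposite directions. miR-146a-5p was at 6474 to 9163 RPM at P18 and at 10578 to 23198 RPM at Inv3 (log2 fold change 0.84 ± 0.17, limma adjusted p = 0.00154), higher with no overlap but short of the limit on size. miR-146b-5p was at 27349, 31767 and 33963 RPM at P18 and at 5787, 19495 and 26279 RPM at Inv3 (log2 fold change -1.08 ± 0.32, limma adjusted p = 0.0176). Its call was lost without Inv3 mouse 1 (-0.82) or Inv3 mouse 2 (-0.88), with size factors (-0.96) and in the count tests of edgeR (-0.77, adjusted p = 0.066) and DESeq2 (-0.74, adjusted p = 0.066) on whole reads. The log2 ratio of miR-146a-5p to miR-146b-5p rose by 1.92 ± 0.56 with no overlap (exact permutation, adjusted p = 0.0073). miR-146a-5p exceeded miR-146b-5p in Inv3 mice 1 and 2 and in none of the other mice. The mature sequences differ at A18G and C21U (base of miR-146b-5p first), outside the seed, and the hairpins lie on chr11:43374397-43374461 (minus strand) and, in an intron of Mfsd13a, on chr19:46342762-46342870 (plus strand).

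Other ratios without overlap were of miR-15b-5p to miR-16-5p, which fell by 0.99 on the log2 scale (SE 0.20), and of miR-152-3p to miR-148a-3p, which rose by 1.44 ± 0.31. The ratio of miR-29c-3p to miR-29a-3p fell by 0.72 (SE 0.10), although these mature sequences differ only at C10U (base of miR-29a-3p first). The ratio of miR-30c-5p to miR-30a-5p fell by 0.96 (SE 0.15), with miR-30a-5p at a log2 fold change of 0.45 and miR-30c-5p at -0.51. Smaller shifts without overlap were those of miR-27a-3p over miR-27b-3p (0.57 ± 0.13), of miR-107-3p over miR-103-3p (0.53 ± 0.08), of miR-125a-5p over miR-125b-5p (0.51 ± 0.10) and of let-7e-5p over let-7c-5p (0.63 ± 0.07). All of these had an adjusted p of 0.0073 by the exact permutation test. In the miR-17 seed group, by contrast, the ratios of miR-17-5p, miR-20a-5p and miR-106b-5p to miR-93-5p changed by -0.29 ± 0.17, -0.21 ± 0.17 and -0.32 ± 0.22, with adjusted p from 0.21 to 0.32 (exact permutation). Of the same seed, miR-106a-5p and miR-20b-5p were under 100 RPM and not among the ratios tested. Their log2 fold changes were 0.02 and 0.21.

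**Figure D3:**
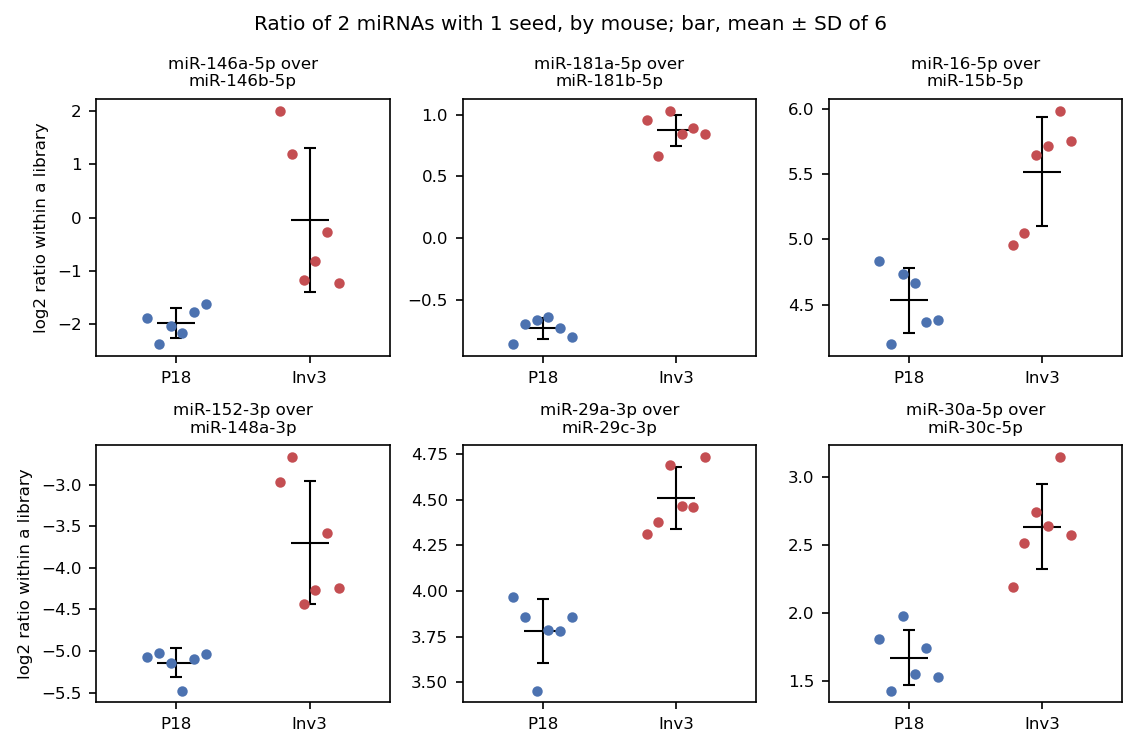
Log2 ratio within a library (vertical axis) of 6 pairs of miRNAs that share a seed, in each P18 mouse (blue) and Inv3 mouse (red), with the mean and SD of the 6 mice. In each pair the stages do not overlap. The ratio of miR-181a-5p to miR-181b-5p is below 0 at P18 and above 0 at Inv3, with little spread, while that of miR-146a-5p to miR-146b-5p is widely spread at Inv3.

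The arms of a hairpin did not always change alike. Both arms were tested for 142 hairpins, of which 95 had the same sign in both. For 37 hairpins at least 1 arm was called, and 32 of these had the same sign. Both arms were called for 9 hairpins, each time in the same direction (miR-21a, miR-486a and miR-676 higher, and miR-148a, miR-203, miR-335, miR-379, miR-127 and miR-434 lower). The ratio of the arms was compared for 56 hairpins with at least 20 RPM on each arm, again chosen after the values had been seen, and 23 had an adjusted p under 0.05 by the exact permutation test. let-7d was the farthest apart, with a log2 fold change of -0.37 for the 5p arm and 1.48 for the 3p arm, a change in ratio of -1.85 ± 0.38 (adjusted p = 0.017, exact permutation). In the miR-30 family the 5p arm gained on the 3p arm in miR-30a (1.03 ± 0.09), miR-30b (1.17 ± 0.27) and miR-30d (1.11 ± 0.21), each with no overlap and an adjusted p of 0.017 by the exact permutation test. miR-17-5p fell relative to miR-17-3p (-0.95 ± 0.30) and miR-106b-5p relative to miR-106b-3p (-1.06 ± 0.39), with overlap and adjusted p of 0.038 and 0.047 (exact permutation).

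Several miRNAs of the secretory epithelium varied much more among the Inv3 mice than among the P18 mice. miR-148a-3p, a major miRNA of milk, was at 19936, 20707 and 24827 RPM at P18 (lowest, median, highest) and, at Inv3, at 3405, 2810, 13758, 13717, 5580 and 15195 RPM in mice 1 to 6. All Inv3 mice were below all P18 mice, with a log2 fold change of -1.54 ± 0.36 (limma adjusted p = 0.00414), but the highest was 5.41 times the lowest, against 1.25 times at P18. miR-210-3p, which is induced by hypoxia, was at 228 to 398 RPM at P18 and at 26.6, 22.5, 137, 117, 38.1 and 104 RPM in Inv3 mice 1 to 6, with a log2 fold change of -2.34 ± 0.39. Means at Lac7 were 46228 RPM for miR-148a-3p and 737 RPM for miR-210-3p, and at W10 2356 and 31.6 RPM.

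In the same mice, miR-146b-5p was at 5787, 7148, 23927, 24908, 15062 and 26279 RPM, and miR-200a-3p, an epithelial miRNA, at 16145, 12214, 47570, 40262, 19126 and 53996 RPM. Thus mice 3, 4 and 6 were high and mice 1, 2 and 5 lower for each of these miRNAs. For miR-200a-3p, mice 3, 4 and 6 lay above all P18 mice (27361 to 39510 RPM) and mice 1, 2 and 5 below them, and the log2 fold change was -0.33 ± 0.30, with a 95% interval of -0.97 to 0.31. miR-375-3p, known from pancreatic islets and other secretory epithelia, was the only luminal marker called higher (1.82 ± 0.52, limma adjusted p = 0.0149). It was at 392, 185 and 306 RPM in Inv3 mice 3, 4 and 6 and at 39.5, 35.1 and 60.96 RPM in mice 1, 2 and 5, beside 17.1 to 42.5 RPM at P18 and a mean of 964 RPM at Lac7.

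The tested members of the luminal epithelium list (the miR-200 family with miR-141 and miR-429, the miR-182, miR-183 and miR-96 cluster and miR-375) summed to 53608 to 67978 RPM at P18 and to 28601, 25385, 80108, 65759, 33009 and 85150 RPM in Inv3 mice 1 to 6. Their part in the results for miR-148a-3p, miR-210-3p, miR-146b-5p and miR-375-3p was not tested. Of the 15 members tested, 1 was called higher (miR-375-3p) and 1 lower (miR-183-3p), together 13.3%, beside 14.6% of all miRNAs tested. The log2 fold change of miR-183-3p, -1.04, came to -0.69 to -0.99 and lost its call in 9 settings, size factors, edgeR and DESeq2 among them. On this list 13 log2 fold changes were below 0, and the median was -0.48, beside -0.15 for all miRNAs tested. miR-200c-3p fell by 0.68 on the log2 scale without being called.

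Other values ran the opposite way over the Inv3 mice. In mice 1 to 6 the fibroblast and smooth muscle list summed to 335749, 303446, 277264, 285242, 350724 and 257585 RPM, and the leukocyte list to 75149, 66400, 38863, 44197, 51758 and 46599 RPM. Most of the leukocyte sum was 1 entry, miR-142b, at 51558, 43267, 25945, 29080, 34957 and 29456 RPM. The libraries held 1165321, 1110996, 1012040, 976572, 1049915 and 722068 reads, so that mice 1, 2 and 5 were also the most deeply sequenced. The part of cell makeup and of depth in the levels of the secretory miRNAs was not tested.

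Some other miRNAs were closer together among the Inv3 mice. miR-29a-3p spanned 34513 to 41882 RPM, and the highest value at Inv3 was 1.23 times the lowest for miR-140-3p, 1.40 times for miR-339-5p, 1.78 times for miR-181b-5p and 1.60 times for miR-203-3p. It was 3.74 times for miR-335-5p, and among miRNAs of low level it was 8.75 times for miR-335-3p, 12.6 times for miR-181d-5p and 20.2 times for miR-434-3p. miR-181b-5p was, within this narrow range, again higher in mice 3, 4 and 6 (336 to 397 RPM) than in mice 1, 2 and 5 (223 to 290.1 RPM). miR-204-5p was lowest in mice 3, 4 and 6 (48.4, 44.0 and 44.3 RPM) and at 103, 82.8 and 58.1 RPM in mice 1, 2 and 5. Over the 161 miRNAs of at least 100 RPM, the median SD among mice on the log2 scale was 0.23 at P18 and 0.34 at Inv3, and the SD was larger at Inv3 for 106 of them.

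**Figure D4:**
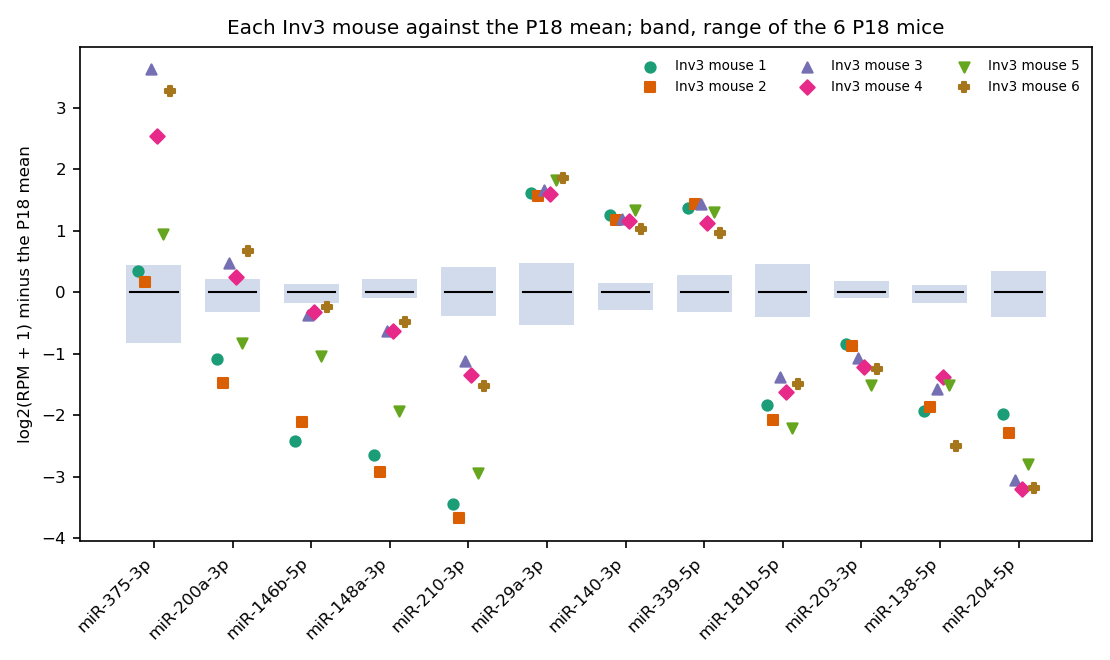
Level of 12 miRNAs in each Inv3 mouse (symbols) as log2(RPM + 1) minus the P18 mean (vertical axis), with the range of the 6 P18 mice as a blue band. For the 5 miRNAs on the left, mice 3, 4 and 6 lie above mice 1, 2 and 5, while the other 7 are closer together, as for miR-29a-3p, 1.21 times between the highest and the lowest mouse.

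The marker lists of other cell types in the gland were small. The list named basal epithelium held 4 tested members, the arms of miR-203 and of miR-205, with a median of -0.79. Its only calls, both lower, were the arms of miR-203, which is known for repressing a basal cell factor. The median is therefore not a measure of basal cells. miR-205-3p had a log2 fold change of -0.46 and was not called. miR-205-5p, the usual marker of basal cells, was at 337 to 570 RPM at P18 and at 407 to 1074 RPM at Inv3 (0.49 ± 0.24, adjusted p = 0.15 by limma), highest in Inv3 mice 1 and 2. None of the 9 tested members of the fibroblast and smooth muscle list was called and the median was 0.13, although 3 rose. These were miR-143-3p (0.75 ± 0.10, limma adjusted p = 4.95e-05), miR-145a-5p (0.76 ± 0.17) and miR-199b-5p (0.80 ± 0.21). The list summed to 191805 to 215611 RPM at P18 and to 257585 to 350724 RPM at Inv3, mostly through miR-143-3p, which was at 137783 to 154585 RPM and at 212944 to 295263 RPM.

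Among blood cells, both arms of miR-486a, a red cell miRNA, rose (1.03 ± 0.28 and 1.18 ± 0.24 for the 5p and 3p arms), while miR-451a, the most abundant red cell miRNA, differed by 0.60 ± 0.26 (limma adjusted p = 0.0994). The other red cell miRNAs tested, miR-144-5p and miR-144-3p, had log2 fold changes of 0.41 and -0.41 and were not called. The call of miR-486a-5p was lost without Inv3 mouse 5 (0.88) or P18 mouse 5 (0.87). The neutrophil miRNA miR-223 rose in both arms, miR-223-3p from 977 to 1303 RPM at P18 to 1598 to 2227 RPM at Inv3 (0.61 ± 0.13) and miR-223-5p by 1.17 ± 0.26 (0.99 without Inv3 mouse 5). The pan-leukocyte miR-142 strands did not pass the test (0.09 to 0.39). None of the 5 lymphocyte, 4 endothelial or 5 fat cell miRNAs tested was called, and medians were -0.08, 0.40 and -0.16. Of the fat cell miRNAs, 2 fell, miR-103-3p (-0.52) among them, beside 86 of all 499 tested. The fat cell list summed to 36108 to 44219 RPM at P18 and to 21870 to 30763 RPM at Inv3, mostly through miR-103-3p. Of the endothelial miRNAs, miR-126a-5p (0.61 ± 0.18, limma adjusted p = 0.0201) and miR-126b-3p (0.55 ± 0.16, limma adjusted p = 0.0178) rose with mice that overlapped. The most abundant, miR-126a-3p, had a log2 fold change of -0.02 ± 0.12, with a 95% interval of -0.27 to 0.22, and miR-126b-5p one of 0.25 ± 0.17. The liver miRNA miR-122-5p was at 0 to 2062 RPM at P18 and at 0 to 626 RPM at Inv3, and was not called (2.95 ± 1.63). Its median was 1.56 RPM at P18 and 73.75 RPM at Inv3 while its mean was 345 and 167 RPM, so that the ratio of means and the log2 fold change differ in sign. Of 6 skeletal muscle miRNAs, miR-206-3p alone was called (16.7%, beside 14.6% of all miRNAs tested).

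The most abundant miRNAs changed by less than the limit on size, apart from miR-29a-3p. let-7c-5p, of the differentiation-linked let-7 family, was the most abundant miRNA at P18 and the third at Inv3, after miR-143-3p and miR-16-5p, and fell from 129438 to 173046 RPM at P18 to 75927 to 96431 RPM at Inv3, with no overlap (log2 fold change -0.79 ± 0.11, limma adjusted p = 4.89e-05). let-7a-5p fell by 0.48 and miR-103-3p by 0.52 on the log2 scale, again with no overlap. Of the 21 let-7 family members tested, 6 fell and 2 rose, beside 86 and 52 of all 499 tested. Only let-7d-3p was called (4.76%, beside 14.6% of all miRNAs tested). miR-199a-3p (-0.08 ± 0.13), miR-27b-3p (-0.11 ± 0.14), miR-16-5p, miR-200a-3p and miR-142b (0.36 ± 0.22) did not pass the test. miR-142b is listed from the strand opposite the 3p arm of miR-142a.

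Of the 36 lists described by their counts, 16 had no called member. Among these were the clusters of miR-23, miR-27 and miR-24 (9 tested, median 0.03), of miR-322 and miR-503 (12 tested, median -0.28, with 3 that fell), of miR-99, miR-100 and miR-125 (10 tested, median 0.52, with 2 that rose) and of miR-10 and miR-196 (7 tested, median 0.10). The 19 tested members of the miR-297, miR-466, miR-467 and miR-669 families had a median of -0.32 and no adjusted p under 0.05.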

How the data were processed

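Per the labels and the study's methods, the libraries were made with the QIAseq miRNA kit and assigned by the authors with QuickMIRSeq and miRBase 22. The deposited values are RPM over all listed miRNAs. The submitters' processing notes also name Trimmomatic 0.36, cutadapt, FastQC, MultiQC and GRCm38. Whole reads were recovered for 100% of the values (within 0.0055 RPM) and used for the count tests among the alternatives. Whether molecular identifiers were used in counting is not given in the sources used here. Names ending in @ were kept.

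The design text of the series gives other days for lactation and involution than the labels and the study's methods, and the latter were used. It also names inguinal glands only, where the study's methods name abdominal and inguinal glands, and the methods were followed.

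miRNAs averaging 1 RPM or more at P18 or Inv3 were tested on log2(RPM + 1) with limma 3.58.1 (lmFit, eBayes with trend, two-sided) in R 4.3.3, over the 12 libraries of the 2 stages and without covariates. The study used DESeq2. Steps were tested on simulated data. Alternatives were pseudocounts of 0.1 and 10 RPM, no filter or one at 100 RPM, a fit of all 24 libraries, a replicate block, size factors, edgeR 4.0.16, DESeq2 1.42.0, weights by stage and each mouse left out; scaling without miR-143-3p and the seed and arm ratios were added after seeing the data. Mouse numbers do not pair the stages. P-values set the difference between the stages against the spread between mice.

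The named miRNAs were the 12 largest called changes each way at 100 RPM or above without overlap (6 qualified as higher), the 3 largest each way below it, the 10 most abundant, the called or most abundant members of each list, and the other arms and seed partners of the first group. Others, such as miR-146a-5p, miR-206-3p and the pairs with other seeds, were named after their values were seen. The comparison, its members and the lists were chosen with earlier results of these data known. Sequences and hairpin positions are from RefSeq, and host genes from GENCODE M21. Python 3.11.15, pandas 2.3.3, scipy 1.17.1 and matplotlib 3.10.9 were used.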

Additional observations from a re-analysis of the deposited data

Results flagged for a closer look

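For 33 miRNAs named in the report, each stage was examined for a mouse far from the other 5 by Dixon's criterion (the gap to the nearest mouse over the range). Of 66 groups, 5 had such a mouse, and chance gives about 1 in 20 groups. At P18, mouse 2 was high for miR-103-3p (42573 RPM), mouse 4 for miR-148a-3p (24827 RPM) and mouse 3 for miR-298-5p (27.7 RPM). At Inv3, mouse 1 was high for miR-21a-5p (49305 RPM) and for miR-181d-5p (12.01 RPM). For miR-21a-5p and miR-298-5p the far mouse lies on the side away from the other stage, whereas Inv3 mouse 1 lies nearest to P18 for miR-181d-5p. The other miRNAs named in the report were not examined, so the 5 are not a full list. Some of those also hold a mouse far above the rest. At Inv3, let-7d-3p was at 174 RPM in mouse 2 (next 58.4 RPM) and miR-541-5p at 600 RPM in mouse 1 (next 310 RPM).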

How the results depend on the processing

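With each mouse left out in turn, the number of called miRNAs was 67 to 79 (73 with all mice), that with an adjusted p under 0.05 was 112 to 137 (138), that without overlap 70 to 82 (68), that with an interval within 1 log2 unit 147 to 168 (176), and the median log2 fold change -0.17 to -0.12 (-0.15). The pseudocount of 10 RPM, which shrinks the fold changes of low miRNAs, gave 34 calls and 396 such intervals. Without a filter there were 541 such intervals over more miRNAs. With the filter at 100 RPM, where fewer miRNAs are tested, there were 27 calls, 81 with an adjusted p under 0.05, 43 without overlap and 91 such intervals. The median was -0.04 with size factors and 0.01 without miR-143-3p in the scaling.

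Other settings gave 62 to 79 calls. Of the 73, edgeR shared 60 (66 called), DESeq2 54 (62 called), size factors 64 (69 called), weights by stage 73 and the fit of all 24 libraries 71 (79 called). The mouse numbers do not pair the stages. Same-numbered mice had correlations of -0.22 to 0.29 over 161 miRNAs, and 1 of 6 correlated best with its own number. The replicate block gave 70 calls, all among the 73. Of 107 named miRNAs, 72 had an adjusted p under 0.05, and none of these changed sign under the settings run. Of the 63 that were called, 27 kept their call in every setting that tested them and 36 lost it in at least 1, 19 of these when a mouse was left out. A setting that did not test a miRNA, such as the filter at 100 RPM for those below it, was not counted as a loss. Depth limits the low miRNAs, since 3 reads are 2.57 to 4.15 RPM.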
